A study of Homo sapiens with 12 samples.

Results

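The 29 interferon-stimulated genes described here were taken as a list of symbols of the interferon response, by a rule that uses no measured value but was chosen with earlier results of these data known, and all 29 were found among the 57905 human genes of the files. They were followed in single-cell RNA-seq of Nalm-6, a human cell line of precursor B-cell acute lymphoblastic leukemia. One library was labelled as induced RUNX1 expression, from cells that carry a TetOn regulator and a lentiviral RUNX1 cDNA and were given 500 ng/ml doxycycline for 72 h, and the other was labelled as the control. The genotype label of the control is an empty vector and its time label is 72 h, yet DMSO, a solvent, stands in its title and doxycycline in none of its labels. The methods of the study describe a DMSO library of Nalm-6 as the control of a drug experiment of another length. Vector, inducer, culture and time therefore cannot be told apart from the RUNX1 label. The sources call the lines stable and do not say whether they were cloned.

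With 1 library per group there was no replicate check and no test between the groups, and every interval below is an exact 95% interval for counting error only. The RUNX1-labelled library held 4800 passing cells with 75350615 human UMIs (molecules counted once), and the control 5598 cells with 75754137. The median passing cell had 14805 UMIs in the RUNX1-labelled library and 12505.5 in the control, and a median of 13.0% of its UMIs in the RUNX1-labelled library and 9.40% in the control were mitochondrial. There were 12 barcodes that occurred in both libraries. RUNX1 itself went against the label, with 30.4 CPM (UMIs of the gene per 1000000 human UMIs of the library) in the RUNX1-labelled library and 69.7 CPM in the control, a log2 ratio of -1.20 (-1.27 to -1.13). The sources do not say whether the construct holds the 3′ end that the assay reads. All 12 B precursor markers found had a mean of at least 1 CPM over both libraries. In the RUNX1-labelled library 2 were at least 2-fold higher, beside 10.5% of all genes at that mean, and 1 was at least 2-fold lower, beside 3.78%.

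Cells that bind type I interferon, or the related lambda interferons, activate the kinases JAK1 and TYK2 at the receptor. These activate STAT proteins, and STAT2 takes part with IRF9 in ISGF3, a complex that enters the nucleus and binds the interferon-stimulated response element in the promoters of antiviral genes. The products act at each step of a viral life cycle, as sensors of foreign RNA, blocks to entry, nucleases, modifiers of proteins and brakes on the signal itself. Many of these genes also keep a low level without added interferon.

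The core of the response element was frequent in the promoters of the members, and the stretches of 5 members are shown because the results turn on them. Windows of 250 bases before to 50 bases after each start were read from RefSeq promoters on GRCh38.p14, where 21 of the 29 members had 1 or more starts. IFIT2, MX2, OAS2, OASL, IFITM2, LY6E, USP18 and TRIM22 were not matched. The core was searched as GAAANNGAAA on both strands, overlapping matches included. It occurred in 17 of the 21 matched members (81.0%) and in 4.38% of 27305 genes, or in 21 of 28 member windows (75.0%) and 3.57% of 35116 windows. TTCNNNGAA, the letters of the gamma-activated site, occurred in 5 of the 21 members (23.8%) and 9.38% of genes, and it overlapped a core match in 5 of the 6 member windows that held it. TGTGGT or TGCGGT, the letters RUNX proteins bind, occurred in 5 of the 21 members (23.8%) and 22.9% of genes. OAS1, STAT2, XAF1 and DDX58 had no core match in these windows. In the stretches below, all upstream of the start and written along the strand of the gene, capitals mark the core matches. Those that begin with GAAA lie on the strand shown and those that begin with TTTC on the other.
MX1, chr21:41431829-41431888, plus strand: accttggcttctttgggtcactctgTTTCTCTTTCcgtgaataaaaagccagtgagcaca
ISG20, chr15:88638922-88638981, plus strand: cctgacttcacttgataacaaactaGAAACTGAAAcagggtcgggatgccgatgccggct
IFIT1, chr10:89392482-89392554, plus strand: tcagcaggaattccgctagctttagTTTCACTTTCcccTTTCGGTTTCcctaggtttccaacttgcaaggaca
ISG15, chr1:1013359-1013424, plus strand: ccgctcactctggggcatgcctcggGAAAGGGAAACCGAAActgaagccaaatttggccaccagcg
HERC5, chr4:88456969-88457079, plus strand: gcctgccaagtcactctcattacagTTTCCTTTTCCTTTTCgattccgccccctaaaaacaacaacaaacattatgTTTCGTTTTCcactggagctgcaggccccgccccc
The stretch of MX1 belongs to 1 of its 3 starts. MX1 and ISG20 stood higher in the RUNX1-labelled library and IFIT1 stood lower, so a core match was present in members on both sides of the comparison. ISG15 and HERC5 had the most UMIs, over both libraries, of the members with a match.

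The members did not move as a block. Of the 29, 24 had a mean of at least 1 CPM over both libraries and are called measured, and 12 of these lay above and 12 below a log2 ratio of 0, with a median of 0.073. The median of all 12273 measured genes was 0.0020. MX1, OAS1 and ISG20 were at least 2-fold higher in the RUNX1-labelled library, which is 3 members beside 10.5% of all measured genes. IFIT1 alone was at least 2-fold lower, beside 3.78% of all measured genes. Together 4 of 24 members (16.7%) were past 2-fold, against 14.3% of all genes, a share near the background. Within 0.5 of 0 on the log2 scale lay 12 of the 24 (50%) and 60.0% of all genes. The split of all genes past 2-fold rested on the scaling, with 73.5% of them higher by total UMIs, 61.4% by TMM factors, 61.5% by a median of ratios and 89.3% by totals that omit mitochondrial and ribosomal protein genes. These scalings moved the median of all genes to -0.13, -0.13 and 0.25, and the 4 members stayed past 2-fold on the same side under each.

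**Figure D1:**
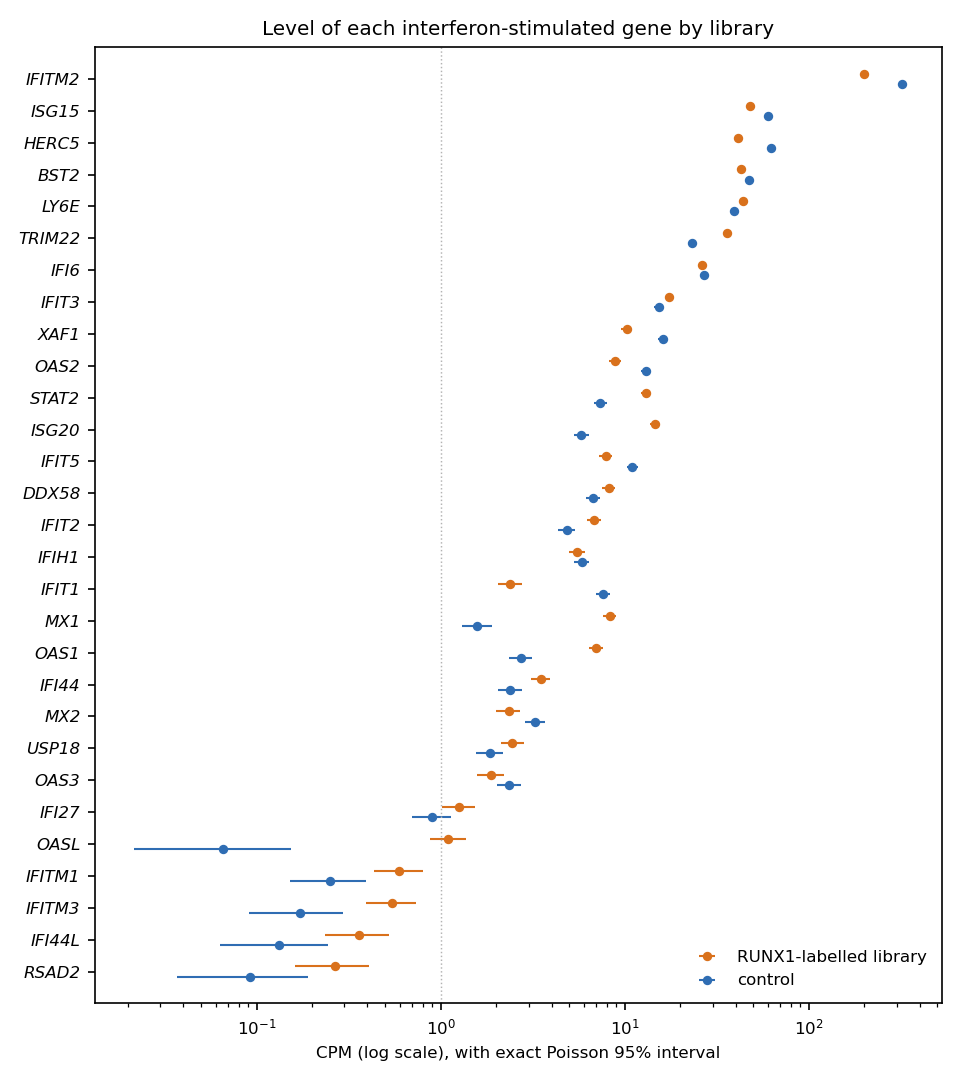
CPM of the 29 interferon-stimulated genes on a log scale (horizontal axis) with exact Poisson 95% intervals, 1 gene per row in order of mean CPM, for the RUNX1-labelled library (orange, upper point) and the control (blue, lower point); the dotted line marks 1 CPM. MX1 lies at 8.27 CPM in the RUNX1-labelled library and 1.58 CPM in the control, IFIT1 at 2.39 CPM against 7.63 CPM in the control, and the 5 lowest genes are not measured.

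The dynamin-like GTPases MX1, which blocks influenza and related viruses, and MX2, which acts on retroviruses, lie side by side on chromosome 21 (GRCh37, the build the authors call hg19; MX2 at 42733926 to 42781320 and MX1 at 42791947 to 42841998). MX1 had 623 UMIs in the RUNX1-labelled library and 120 in the control, or 8.27 CPM (7.63 to 8.94) against 1.58 CPM in the control (1.31 to 1.89). Its ratio was 5.22-fold, or 2.38 on the log2 scale (2.10 to 2.68), the largest of the measured members. MX2 had 2.34 CPM in the RUNX1-labelled library and 3.27 CPM in the control, a log2 ratio of -0.49 (-0.77 to -0.20). The neighbours thus lay on opposite sides of 0.

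The oligoadenylate synthetases, which detect double-stranded RNA and make the messenger that activates the nuclease RNase L, were divided as well. OAS1 (chromosome 12, 113343661 to 113371024) had 527 UMIs in the RUNX1-labelled library and 206 in the control, or 6.99 CPM (6.41 to 7.62) against 2.72 CPM in the control (2.36 to 3.12), a log2 ratio of 1.36 (1.13 to 1.60). OAS3 (113375856 to 113414265) and OAS2 (113416200 to 113449528) follow it on the chromosome. OAS2 had 8.84 CPM in the RUNX1-labelled library and 12.99 CPM in the control (log2 ratio -0.56, -0.70 to -0.41), and OAS3 had 1.87 CPM there against 2.36 CPM in the control (-0.34, -0.67 to -0.01). OASL, a relative that makes no such messenger and aids RNA sensing by RIG-I, had 83 UMIs in the RUNX1-labelled library and 5 in the control. Its log2 ratio of 4.06 (2.78 to 5.72) exceeded that of every other member, but its mean lay under 1 CPM and it does not enter the counts.

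The IFIT proteins bind foreign RNA, and their 4 listed genes form a cluster on chromosome 10 from 91043451 to 91181362 in the order IFIT2, IFIT3, IFIT1 and IFIT5. IFIT1 had 180 UMIs in the RUNX1-labelled library and 578 in the control, or 2.39 CPM (2.05 to 2.76) against 7.63 CPM in the control (7.02 to 8.28). Its log2 ratio was -1.68 (-1.92 to -1.43), the lowest of the members. IFIT3, which stabilises IFIT1, had 17.5 CPM in the RUNX1-labelled library and 15.3 CPM in the control, and IFIT2 had 6.83 CPM there against 4.83 CPM in the control, for log2 ratios of 0.19 (0.08 to 0.31) and 0.50 (0.30 to 0.70). IFIT5 had 7.87 CPM in the RUNX1-labelled library and 10.98 CPM in the control, a log2 ratio of -0.48 (-0.64 to -0.33). The ratios in this cluster thus spanned 0, with IFIT1 farthest from its neighbours.

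The IFITM proteins sit in membranes and hinder the entry of viruses. IFITM2 had the most UMIs of all members, 14958 in the RUNX1-labelled library and 24460 in the control, or 198.5 CPM there against 322.9 CPM in the control, a log2 ratio of -0.70 (-0.73 to -0.67). IFITM1 had 45 UMIs in the RUNX1-labelled library and 19 in the control, and IFITM3 had 41 there against 13 in the control, so neither was measured. These 3 genes lie next to each other on chromosome 11 and are close in sequence, so the counting may have split or lost their reads and their separate levels are uncertain.

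ISG20, an RNA exonuclease (chromosome 15, 89178901 to 89199714), had 1094 UMIs in the RUNX1-labelled library and 440 in the control. This was 14.52 CPM (13.7 to 15.4) against 5.81 CPM in the control (5.28 to 6.38), a log2 ratio of 1.32 (1.16 to 1.48). Among the remaining effectors, TRIM22, a ubiquitin ligase, had 36.1 CPM in the RUNX1-labelled library and 23.2 CPM in the control (log2 ratio 0.64, 0.55 to 0.73). IFI44 had 3.49 CPM there against 2.39 CPM in the control (0.55), and IFI27, a mitochondrial protein, had 1.26 CPM against 0.898 CPM in the control (0.49). XAF1, an antagonist of the apoptosis inhibitor XIAP, had 10.2 CPM in the RUNX1-labelled library and 16.1 CPM in the control (-0.65, -0.78 to -0.52). LY6E, a surface protein held by a lipid anchor, had a log2 ratio of 0.18, IFI6 of -0.03 and BST2, which tethers budding virions to the cell, of -0.15, and the ratios of IFI6 and BST2 turned positive with totals that omit mitochondrial and ribosomal protein genes. RSAD2, known as viperin, had 20 UMIs in the RUNX1-labelled library and 7 in the control, and IFI44L had 27 there against 10 in the control, both too few to be measured.

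None of the sensors and signalling members was past 2-fold over all cells. DDX58, the RNA sensor RIG-I, had 8.19 CPM in the RUNX1-labelled library and 6.71 CPM in the control (log2 ratio 0.29, 0.12 to 0.46), and IFIH1, the sensor MDA5, had 5.52 CPM there against 5.83 CPM in the control (-0.08, -0.28 to 0.12, and above 0 with totals that omit mitochondrial and ribosomal protein genes). STAT2, the ISGF3 subunit specific to this pathway, had 13.07 CPM in the RUNX1-labelled library and 7.38 CPM in the control (0.82, 0.67 to 0.98). It was past 2-fold at 1.24 among cells under 10% mitochondrial UMIs and at 1.04 with totals that omit mitochondrial and ribosomal protein genes. Within the cycling states described below its ratio was nearer to 0, at 0.28 (-0.12 to 0.69) in G1 cells and 0.46 (0.26 to 0.66) in S or G2/M cells. In the ISG15 system, ISG15, the ubiquitin-like modifier, had 47.9 CPM in the RUNX1-labelled library and 59.8 CPM in the control (-0.32, -0.39 to -0.26). HERC5, the ligase that attaches it, had 41.2 CPM there against 62.6 CPM in the control (-0.60, -0.67 to -0.54), and USP18, the protease that removes it and restrains the receptor, had 2.46 CPM against 1.85 CPM in the control (0.41, 0.09 to 0.74).

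Summed over the 29 members and all passing cells, and scaled by total UMIs, the level was lower in the RUNX1-labelled library, and this rested on IFITM2. Sums without IFITM2 were not taken within cycling states or with other scalings. The members made up 561 CPM in the RUNX1-labelled library and 691 CPM in the control, a log2 ratio of -0.30 (-0.32 to -0.28). IFITM2 alone gave 35.4% of these UMIs in the RUNX1-labelled library and 46.7% in the control. Without it the sums were 363 CPM in the RUNX1-labelled library and 368 CPM in the control, a log2 ratio of -0.02 (-0.04 to 0.00). Without IFITM2, ISG15 and HERC5, the 3 members with most UMIs over both libraries, the sum of the other 26 lay on the opposite side of 0, with 274 CPM in the RUNX1-labelled library and 246 CPM in the control (0.16, 0.13 to 0.18).

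The libraries differed in the state of their cells, and the members were therefore compared within each state. Each cell was thinned to 8000 UMIs and called G1, S or G2/M from its S and G2/M transcripts, which left 4188 cells of the RUNX1-labelled library and 5185 of the control. G1 was called in 2346 cells (56.0%) of the RUNX1-labelled library and 391 cells (7.54%) of the control, and S or G2/M in 1842 cells of the RUNX1-labelled library and 4794 of the control. A call is a cut through a score that also reads free RNA and does not measure DNA content, and 254 cells of the RUNX1-labelled library and 206 of the control lay within 0.05 of the cut.

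Among cells called S or G2/M, the higher members no longer stood past 2-fold. Of 24 members measured there, 0 were at least 2-fold higher, beside 4.73% of all measured genes, and IFIT1 was the only member at least 2-fold lower, beside 1.9% of all genes. MX1 had 2.90 CPM in the RUNX1-labelled library and 1.55 CPM in the control (log2 ratio 0.91, 0.51 to 1.30). OAS1 had 4.71 CPM there against 2.66 CPM in the control (0.83, 0.52 to 1.13) and ISG20 9.59 CPM against 5.61 CPM in the control (0.77, 0.56 to 0.98), so all 3 still lay above 0. IFIT1 had 2.82 CPM in the RUNX1-labelled library and 7.48 CPM in the control (-1.41, -1.72 to -1.10). The median of the members was -0.11 and that of all genes -0.06.

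In cells called G1, 7 of 23 measured members were past 2-fold, against 1 of 24 in S or G2/M cells. The share of all measured genes past 2-fold was higher as well, at 6.62% in S or G2/M cells and 20.7% in G1 cells. Of 23 measured there, 3 were at least 2-fold higher, beside 14.1% of all measured genes, and 4 were at least 2-fold lower, beside 6.58%. The higher ones were again MX1, with 12.6 CPM in the RUNX1-labelled library and 1.61 CPM in the control (log2 ratio 2.97, 1.91 to 4.29), OAS1 (1.94, 1.08 to 2.96) and ISG20 (1.33, 0.83 to 1.87). The lower ones were IFIT1, with 1.89 CPM in the RUNX1-labelled library and 11.7 CPM in the control (-2.63, -3.19 to -2.07), MX2 (-1.52, -2.14 to -0.86), OAS2 (-1.17, -1.51 to -0.83) and XAF1 (-1.12, -1.56 to -0.66). IFITM2 had 190.7 CPM in the RUNX1-labelled library and 381.4 CPM in the control, a log2 ratio just inside the 2-fold limit (interval -1.08 to -0.92). The control gave 391 cells to this comparison and 7 UMIs of MX1, and the intervals are wide. Within 1 of these states the ratios of DDX58 (-0.20 in S or G2/M cells), LY6E (-0.06 in S or G2/M cells), USP18 (-0.17 in G1 cells), OAS3 (0.39 in G1 cells) and IFIT3 (-0.01 in G1 cells) lay on the other side of 0 from their values over all cells. TRIM22 had 0.09 (-0.16 to 0.34) in G1 cells and 0.64 (0.54 to 0.75) in S or G2/M cells. XAF1 had only -0.17 (-0.32 to -0.02) in S or G2/M cells.

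**Figure D2:**
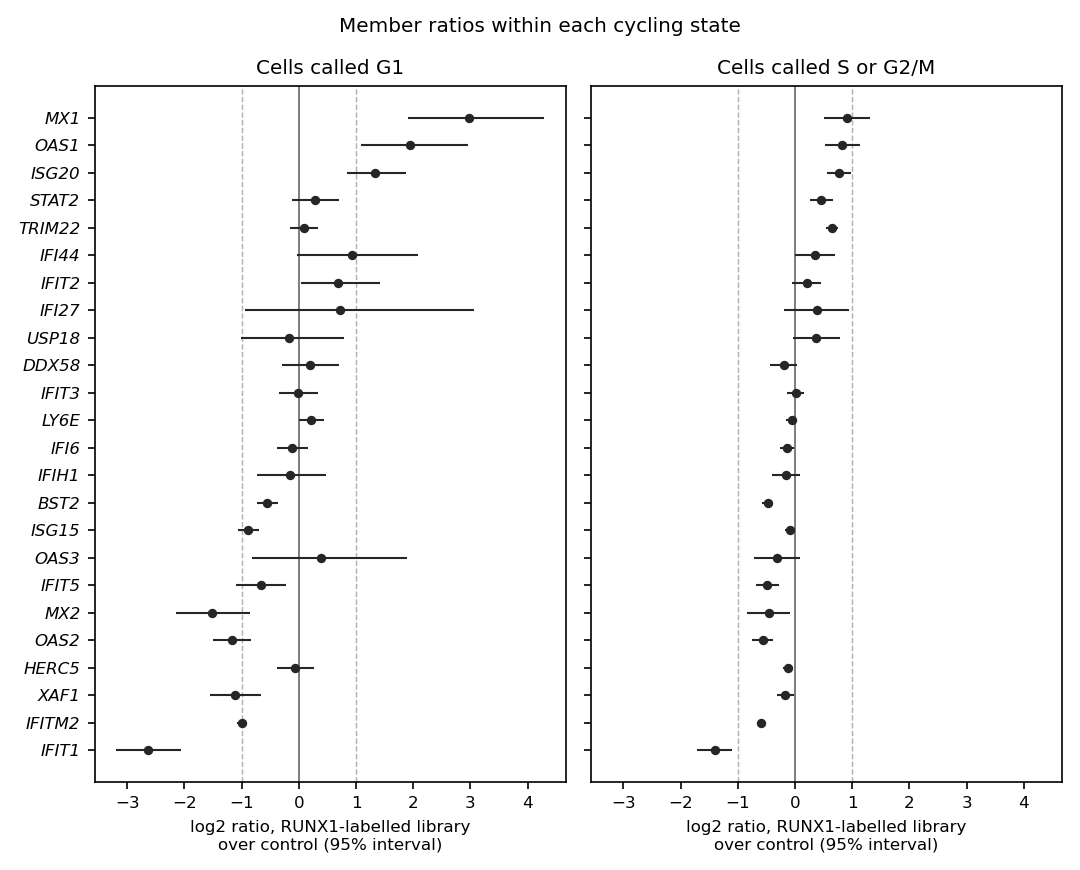
Log2 ratio of the RUNX1-labelled library over the control (horizontal axis) with exact 95% intervals for the 24 measured members (rows, in order of the ratio over all cells), within cells called G1 (left) and within cells called S or G2/M (right); dashed lines mark 2-fold. MX1 lies at 2.97 in G1 cells and 0.91 in S or G2/M cells, and IFIT1 at -2.63 and -1.41.

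Within the RUNX1-labelled library, MX1, OAS1 and ISG20 were the members that stood at least 2-fold higher in its G1 cells than in its S or G2/M cells, 3 of 25 measured, beside 7.86% of all genes. MX1 had 12.6 CPM in G1 cells and 2.90 CPM in S or G2/M cells of that library (log2 ratio 2.12, 1.81 to 2.43), and 1.61 and 1.55 CPM in the same states of the control (0.06, -1.29 to 1.15). OAS1 had a log2 ratio of 1.04 (0.77 to 1.31) in the RUNX1-labelled library and -0.07 (-1.10 to 0.80) in the control. ISG20 had 1.04 (0.85 to 1.22) in the RUNX1-labelled library and 0.48 (-0.07 to 0.99) in the control. For OAS1 and ISG20 the intervals overlapped between the libraries. HERC5 and XAF1 were at least 2-fold lower in G1 cells of the RUNX1-labelled library, beside 5.29% of all genes. In the control, 1 of 23 measured members was at least 2-fold higher in G1 cells, MX2 at 1.15, beside 2.25% of genes, and 1 was at least 2-fold lower, HERC5, beside 5.05%. HERC5 had 20.2 CPM in G1 cells of the RUNX1-labelled library and 21.1 CPM in those of the control, and in S or G2/M cells 60.1 CPM in the RUNX1-labelled library and 65.8 CPM in the control. Its ratio between the libraries was thus -0.07 in G1 cells and -0.13 in S or G2/M cells, although it was -0.60 over all cells, where the libraries differ in their share of G1 calls.

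**Figure D3:**
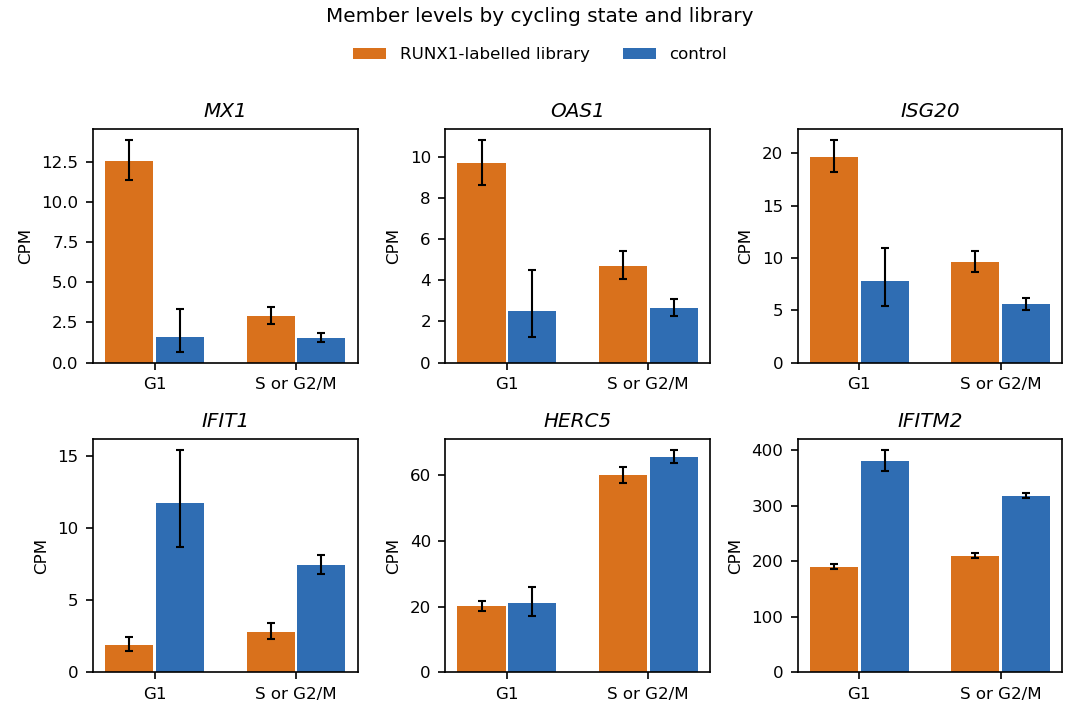
CPM (vertical axis, from 0) of 6 members in cells called G1 and in cells called S or G2/M, for the RUNX1-labelled library (orange, left bar) and the control (blue, right bar), with exact Poisson 95% intervals. MX1 reaches 12.6 CPM in G1 cells of the RUNX1-labelled library, HERC5 follows the state in both libraries, and IFIT1 and IFITM2 are lower in the RUNX1-labelled library in both states.

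After thinning, MX1 was seen in 6.26% of cells of the RUNX1-labelled library (5.54 to 7.03, Clopper-Pearson) and 1.12% of control cells (0.850 to 1.44), and without thinning in 11.2% of cells of the RUNX1-labelled library and 2.07% of control cells. OAS1 was seen in 6.18% of thinned cells of the RUNX1-labelled library against 2.08% in the control, and ISG20 in 11.3% against 4.51% in the control. IFIT1 was seen in 1.74% of thinned cells of the RUNX1-labelled library against 5.82% in the control, and IFITM2 in 72.6% against 91.1% in the control. All barcodes in the files were called human, so no cell type that should lack these genes gave a background share. For the 16 members under 10 CPM in both libraries, a thinned cell held a mean of 0.417 distinct members in the RUNX1-labelled library and 0.311 in the control. The variance of that number was 1.02 times its mean in the RUNX1-labelled library and 1.00 times in the control. In the RUNX1-labelled library 0.812% of thinned cells held 3 or more, against 0.309% of control cells. Among S or G2/M cells these shares were 0.434% in the RUNX1-labelled library and 0.313% in the control. Among G1 cells they were 1.11% in the RUNX1-labelled library and 0.256% in the control, where this was 1 cell. Over cells of 1 library and state, UMIs of member pairs had correlations between -0.12 and 0.11 with a median near 0 (406 pairs, 2346, 1842 and 4794 cells), a description in sparse counts.

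The signals and receptors around the members were low or mixed. All 21 listed interferon genes, among them IFNB1, IFNG and the alpha and lambda genes, had 0 UMIs in both libraries, which allows up to 0.0398 CPM in the RUNX1-labelled library and 0.0396 CPM in the control for each. Of 5 measured receptor subunits, 1 was at least 2-fold higher. This was IFNLR1, the specific chain of the lambda interferon receptor, with 1.80 CPM in the RUNX1-labelled library and 0.304 CPM in the control (log2 ratio 2.57, 1.93 to 3.28), while none was 2-fold lower. Of 6 measured JAK-STAT and ISGF3 genes, 1 was at least 2-fold higher, IRF9, the DNA-binding subunit of ISGF3. IRF9 had 827 UMIs in the RUNX1-labelled library and 169 in the control, or 10.98 CPM against 2.23 CPM in the control (2.30, 2.06 to 2.55). The lists in this paragraph and the next stand beside the same background of 10.5% higher and 3.78% lower genes.

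Of 13 measured genes of nucleic acid sensing, 2 were at least 2-fold higher and 1 lower. IRF7, the transcription factor that amplifies interferon production, had 36.1 CPM in the RUNX1-labelled library and 13.3 CPM in the control (log2 ratio 1.44, 1.34 to 1.55), and MYD88, the adaptor of most Toll-like receptors, had 34.3 CPM there against 13.5 CPM in the control (1.34). IKBKE, a kinase that activates IRF factors, had 2.42 CPM in the RUNX1-labelled library and 4.95 CPM in the control (-1.04, -1.30 to -0.78). In the ISG15 conjugation list, 0 of 6 measured genes were past 2-fold, and the ratios largest in size were 0.69 for UBA7, which activates ISG15, and -0.60 for HERC5. Of 11 measured negative regulators, 2 were higher and 0 lower. SOCS1, an inhibitor of JAK kinases, had 8.61 CPM in the RUNX1-labelled library and 1.19 CPM in the control (2.86, 2.54 to 3.19), and PTPN6, the phosphatase SHP-1, had a log2 ratio of 1.52. Of 57 measured of 65 further interferon-stimulated genes, 6 were higher, namely IFI30 (2.47), SLFN5 (2.31), IRF9, GBP2 (1.60), IRF7 and GBP3 (1.10), and 2 were lower. The lower ones were GBP4, a guanylate-binding protein, with 27.6 CPM in the RUNX1-labelled library and 84.2 CPM in the control (-1.61), and CASP1, the protease of the inflammasome (-1.60). The median of these 57 was -0.02. All list counts rest on scaling by total UMIs, and other scalings were not applied to these lists. GBP3 and IKBKE lie near the 2-fold limit and may not stay past it under another scaling. CXCL10, CXCL11 and TNFSF10, which interferon induces in many cell types, had 0 UMIs in both libraries.

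**Figure D4:**
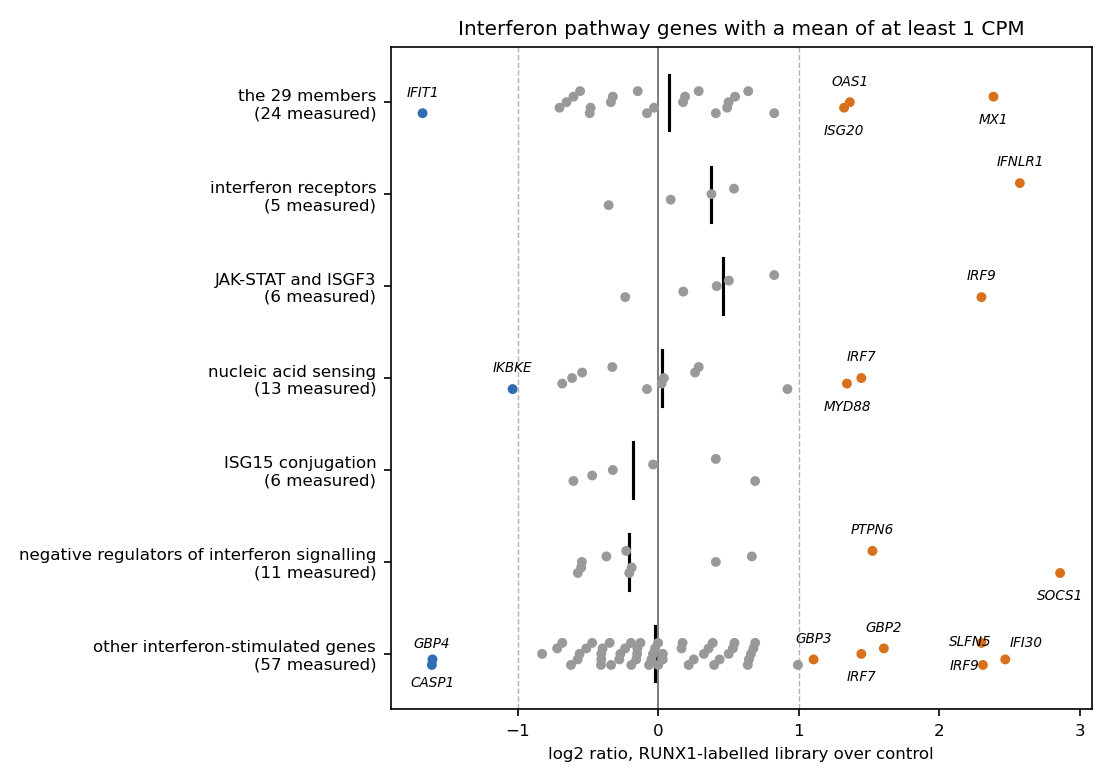
Log2 ratio of the RUNX1-labelled library over the control (horizontal axis) for each measured gene of the members and of 6 pathway lists (rows); orange and blue points are at least 2-fold higher and lower, black ticks are medians and dashed lines mark 2-fold. STAT2, DDX58 and other genes stand in more than 1 row. IRF9 lies at 2.30, SOCS1 at 2.86 and IFIT1 at -1.68, while list medians lie between -0.21 and 0.46.

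IRF9, IRF7 and SOCS1 kept their direction within each cycling state, and their ratios taken without intervals were farther from 0 in G1 cells. Control G1 cells held only 10 UMIs of IRF9 and 4 of SOCS1 (0.250 to 2.35 CPM). Whether these ratios differed between the states was not tested. In G1 cells IRF9 had 14.7 CPM in the RUNX1-labelled library and 2.30 CPM in the control (log2 ratio 2.68), and in S or G2/M cells 5.49 CPM against 2.21 CPM in the control (1.32). IRF7 had log2 ratios of 1.90 in G1 cells and 0.62 in S or G2/M cells, and SOCS1 of 3.37 and 2.17. MYD88 had 1.76 in G1 cells and 0.26 in S or G2/M cells.

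G1 cells of the RUNX1-labelled library were not alike in MX1. They were divided by whether they held UMIs of CCL3 or CCL4, chemokine genes with 0 control UMIs, or else of FCER1G, a subunit of Fc receptors, a division made with the earlier results known. MX1 had 18.6 CPM (16.4 to 21.1) in the 1089 cells with a chemokine UMI, 14.6 CPM (11.8 to 17.8) in 498 cells with FCER1G but no chemokine UMI, and 4.78 CPM (3.64 to 6.17) in the 759 cells with neither, against 1.61 CPM (0.647 to 3.31) in control G1 cells, with overlapping intervals in the first pair of subsets. IRF7 followed the same order at 77.1, 52.2 and 20.4 CPM, against 13.6 CPM in control G1 cells, and IRF9 at 19.8, 15.3 and 8.76 CPM, against 2.30 CPM. OAS1 had 11.1, 9.71 and 8.19 CPM, with intervals that overlapped between neighbours. ISG20 did not follow this order, at 21.5, 24.1 and 15.2 CPM, against 7.81 CPM in control G1 cells. XAF1 ran the other way at 3.32, 5.01 and 9.08 CPM, against 12.6 CPM in control G1 cells. Other members stood on both sides. ISG15 rose like XAF1, at 29.8, 36.7 and 51.2 CPM, and so did IFITM2, at 162, 171 and 234 CPM. BST2 fell like MX1, at 62.6, 47.3 and 31.8 CPM, and so did IFIT3, at 20.9, 18.5 and 14.4 CPM. The intervals of the chemokine and FCER1G subsets overlapped for IRF9, ISG20, XAF1, ISG15 and IFITM2. Those of IFIT3 overlapped between each pair of neighbours. In a further subset, the 255 G1 cells with a UMI of C1orf141 or LINC00967, which overlaps the others, MX1 had 8.03 CPM, IRF7 30.7 CPM and IRF9 22.6 CPM. The median cell had 11522 UMIs with a chemokine UMI, 12306 with FCER1G only and 15900 with neither. The part of this difference in depth in the levels of the subsets was not tested. The summed level of the members, IFITM2 included, was 538, 538 and 573 CPM in the subsets with a chemokine UMI, with FCER1G only and with neither, and 789 CPM in control G1 cells.

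**Figure D5:**
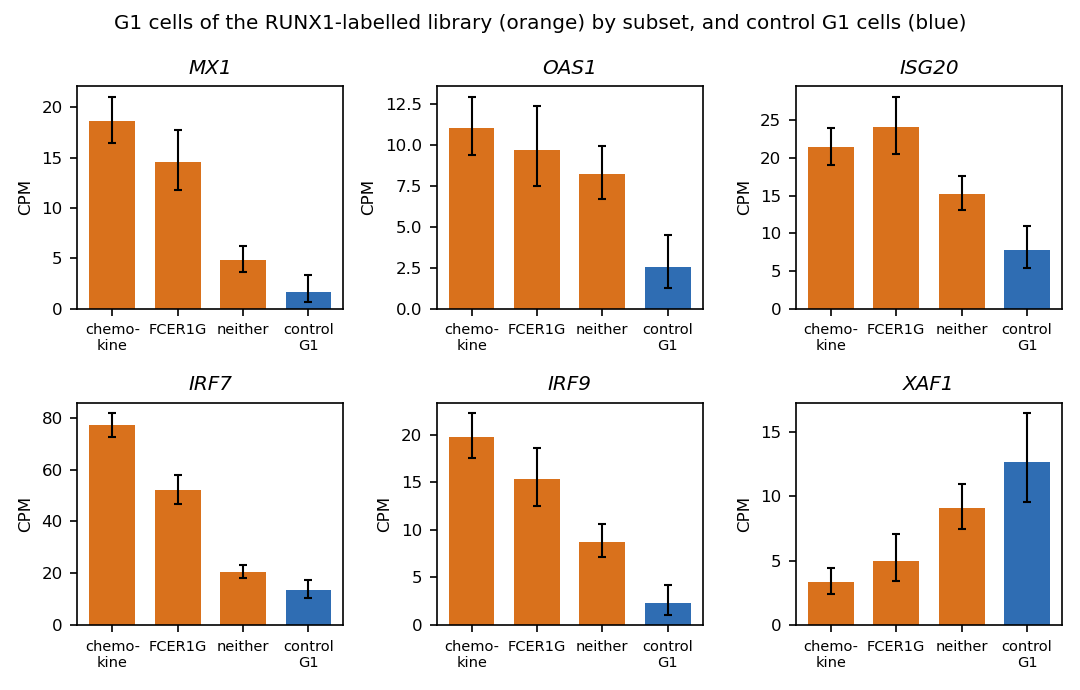
CPM (vertical axis, from 0) of MX1, OAS1, ISG20, IRF7, IRF9 and XAF1 in G1 cells of the RUNX1-labelled library (orange) with a CCL3 or CCL4 UMI, with FCER1G but no chemokine UMI, and with neither, and in control G1 cells (blue), with exact Poisson 95% intervals. MX1 and IRF7 are highest with a chemokine UMI, at 18.6 and 77.1 CPM, and XAF1 is lowest there at 3.32 CPM.

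Among lists for other cell types, T cell markers summed to 9.58 CPM in the RUNX1-labelled library and 7.63 CPM in the control, almost all of it TRAC, and neither library held a UMI of CD3D, CD3G, CD5 or CD7. Of 9 myeloid markers 1 was measured, and the list summed to 1.98 CPM in the RUNX1-labelled library and 2.31 CPM in the control. Of 6 markers of plasmacytoid dendritic cells, a blood cell type that makes much interferon, IL3RA and TCF4 were measured. The list summed to 218 CPM in the RUNX1-labelled library and 387 CPM in the control, of which TCF4, which B precursors also express, gave 215 CPM in the RUNX1-labelled library and 385 CPM in the control. CLEC4C had 0 UMIs in both, and LILRA4 had 74 UMIs in the RUNX1-labelled library and 12 in the control. Of 6 natural killer cell markers 1 was measured, NKG7, with 21.6 CPM in the RUNX1-labelled library and 7.52 CPM in the control. The part of NKG7, TCF4 and LILRA4 in the member ratios was not tested.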

How the data were processed

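The analysis used 1 RUNX1-labelled and 1 control library of single-cell RNA-seq. Human and mouse cells shared the lanes. Per the submitters' processing notes, the authors deposited counts of UMIs per gene and cell from Cell Ranger 3.0.2 with the builds hg19 and mm10, with no normalization. The mouse UMIs of the same barcodes were 1.01% of all in the RUNX1-labelled library and 1.88% in the control. The 10 ChIP-seq samples were not analysed here.

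Groups follow the genotype label. Cells with more than 2000 and fewer than 6000 genes and under 20% mitochondrial UMIs were kept, after the study's methods, which left out 691 of 5491 and 475 of 6073 barcodes. UMIs were summed over cells and scaled to CPM. CPM have exact Poisson intervals, ratios exact conditional binomial and shares exact Clopper-Pearson intervals, at 95%, for counting error only. A count of 0 allows 3 UMIs. Ratios have no pseudocount, and counts use genes with a mean of at least 1 CPM. The calculation of ratios and intervals was checked on simulated Poisson counts, the model that the intervals assume. That check does not cover variation between cells, cultures or libraries. Cells are not replicates and no test between groups was made. The depth limits values of a few UMIs. Phase scores came from scanpy 1.11.5, run on the pooled cells of both libraries thinned to 8000 UMIs, which left out 612 cells of the RUNX1-labelled library and 413 of the control. Doublets were not removed. Gene positions are from GENCODE v44lift37 on GRCh37. Other tools were Python 3.11.15, numpy 2.4.6, scipy 1.17.1, pandas 2.3.3 and edgeR 4.0.16 in R 4.3.3, used for TMM factors only.

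The members and lists were chosen with earlier results of these data known. All members are named. Of each pathway list, genes past 2-fold are named, or the 2 with the largest ratio in size where none was, and IRF9 and IRF7 in any case. A further gene of that rule is not reported here. Of 6 marker lists, counts of measured markers, sums or some markers at 0 are given, with some others chosen after their values were seen. The erythroid and platelet list, with 0 of 5 markers measured, is not described above. In these lists 1 marker was not among the file's symbols. Alternatives changed the scaling, cells, depth, floor, cycling state and phase call.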

Additional observations from a re-analysis of the deposited data

Results flagged for a closer look

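Between cells called G1 and cells called S or G2/M, 3 members lay on opposite sides of 0 in the libraries, each with an interval that left out 0, and the difference between the libraries was not tested. The log2 ratio of G1 over S or G2/M cells was -0.50 in the RUNX1-labelled library and 0.30 in the control for ISG15, -0.58 against 0.65 in the control for IFIT1, and -0.14 against 0.26 in the control for IFITM2.

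The barcodes that failed the cell filter, which enter no comparison above, also held member UMIs. There MX1 had 8.98 CPM in the 691 barcodes of the RUNX1-labelled library and 0.642 CPM in the 475 of the control (55 and 1 UMIs), OAS1 7.02 against 1.28 CPM in the control, ISG20 10.1 against 2.57 CPM in the control, LY6E 55.7 against 33.4 CPM in the control, and TRIM22 44.6 against 19.9 CPM in the control, each with a ratio interval above 0 for counting error only. The interval lay wholly below 0 for 4 members, with log2 ratios of -1.60 (-2.90 to -0.25) for IFIT1, -0.83 (-1.55 to -0.07) for OAS2, -0.88 (-1.64 to -0.08) for XAF1 and -0.54 (-0.69 to -0.39) for IFITM2. These barcodes had a median of 4583 UMIs in the RUNX1-labelled library and 2804 in the control.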

How the results depend on the processing

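The main values were 3 members at least 2-fold higher and 1 lower, a median log2 ratio of 0.073 and a summed log2 ratio of -0.30. The number higher became 5 of 25 measured with totals that omit mitochondrial and ribosomal protein genes, beside 17.1% of all genes. It became 4 of 24 under 10% mitochondrial UMIs, beside 15.5%, and STAT2 was past 2-fold in both. In S or G2/M cells it became 0 of 24, beside 4.73%, and with a floor of 1 UMI in each library 8 of 29, beside 23.3%. It became 1 of 12 with a floor of 10 CPM on the mean, beside 3.76%, and 1 of 13 with that floor in at least 1 library, beside 5.18%. The number lower became 4 of 23 in G1 cells, beside 6.58% of all genes, and 0 with either floor of 10 CPM, beside 3.93% and 4.10%. Both floors leave out IFIT1, MX1 and OAS1 by construction, as each lies under 10 CPM in both libraries. The median became 0.39 with totals that omit mitochondrial and ribosomal protein genes, 0.29 with a floor of 1 UMI and -0.15 with a floor of 10 CPM in at least 1 library. The medians of all genes in these settings were 0.25, 0.13 and -0.13. The sum became -0.43 with TMM factors and with a median of ratios, -0.088 with totals that omit mitochondrial and ribosomal protein genes, -0.28 under 10% mitochondrial UMIs, -0.33 on thinned cells and -0.52 in G1 cells. It became -0.021 without IFITM2 and -0.27 without HERC5. The sum in G1 cells was -0.46 instead of -0.52 when phases were called on all UMIs. Except where given, the causes were not tested.

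Of 258 member ratios under 9 alternatives, 161 stayed within the main counting interval, 96 moved outside it, and 1 turned sign among those past 2-fold: IFITM3, unmeasured, was -0.52 in G1 cells. Nearer to 0, the ratios of IFI6, BST2, IFIH1, LY6E, IFIT3, OAS3, USP18 and DDX58 also lay on the other side of 0 in 1 or more settings, LY6E at -0.08 under 10% mitochondrial UMIs and BST2 there at 0.26. Over these settings MX1 ranged between 0.91 and 3.01, OAS1 between 0.83 and 1.94, ISG20 between 0.77 and 1.55 and IFIT1 between -2.63 and -1.41, with S or G2/M cells nearest to 0 for each. No paired analysis was possible because there was 1 library per group. With 1 library per group, variation between cultures and libraries is not covered by any interval here, and members of a few UMIs, such as RSAD2 and IFI44L, cannot be placed.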

Other observations

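Among cells called S or G2/M, some abundant members differed between S and G2/M calls in both libraries. IFITM2 had 236 CPM in S cells and 184 CPM in G2/M cells of the RUNX1-labelled library, and 338 and 293 CPM in those of the control. HERC5 had 64.4 and 55.5 CPM in the RUNX1-labelled library and 73.1 and 56.3 CPM in the control. LY6E had 41.9 and 32.9 CPM in the RUNX1-labelled library and 42.2 and 35.2 CPM in the control. XAF1 ran the other way, at 13.6 and 15.5 CPM in the RUNX1-labelled library, where the Poisson intervals overlapped, and at 13.6 and 19.8 CPM in the control, where they did not. For IFITM2, HERC5 and LY6E the intervals of S and G2/M cells did not overlap in either library.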
